A study of Mus musculus with 47 samples.

Results

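NRF2, encoded by Nfe2l2, its inhibitor Keap1 and 8 of its classical target genes were followed as RNA levels in mouse JB6 cells with and without a short hairpin RNA (shRNA) against AnxA2. The genes were taken by name: Nfe2l2 and Keap1 as regulators, Nqo1 and Hmox1 for quinone and heme metabolism, Gclc, Gclm, Gsr and Slc7a11 for glutathione, and Txnrd1 and Srxn1 for the thioredoxin and peroxiredoxin system. All 10 were found among the 12393 genes on the array that had a probe set with exactly 1 gene symbol. Where a gene had several probe sets, the one with the strongest mean signal over the 47 arrays stood for it. JB6 is a mouse epidermal cell line that has long served in studies of tumour promotion. 1 line carried the AnxA2 shRNA and the other the empty vector, both brought in by retrovirus and selected with puromycin, in medium with 5% fetal bovine serum. Each line was sham-exposed (called untreated here) or given 10 or 100 cGy of X-rays, and RNA was taken 2, 6 and 24 h later, with untreated cells at 2 and 24 h only. This gave 8 conditions in each line, 16 groups in all, with 3 arrays in a group, or 2 (replicates 1 and 3) in the vector group 24 h after 10 cGy.

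As a model of low annexin A2 the series holds 1 shRNA line and 1 vector line, so that an effect of the knockdown cannot be told apart from other differences between these lines. Arrays of a group are numbered as replicates, but the labels do not say that they came from separate cultures, and the p-values measure only the spread between these samples. RNA was measured in whole cultures, where fewer cells that make an RNA and less of it in each cell cannot be told apart.

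NRF2 is a transcription factor that KEAP1 holds in the cytoplasm and hands to a ubiquitin ligase for degradation. When electrophiles or oxidants modify cysteines of KEAP1, NRF2 builds up, enters the nucleus with a small MAF partner and binds antioxidant response elements near genes for detoxification, glutathione synthesis and thiol reduction. In skin cells the pathway is known for protection against oxidants and chemical carcinogens. Its activity is set largely at the level of the NRF2 protein, which arrays do not measure.

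Promoters of 7 of the 10 genes were found in a RefSeq table of mouse promoters (GRCm38.p6), and the 250 bases before each start were searched on both strands for TGACNNNGC, the core of the antioxidant response element. TGAGNNNGC, searched too, was added after the first search. TGACNNNGC was present in 10.2% and TGAGNNNGC in 14.4% of all 32851 promoters of this length, and either form in 23.0%. The sequences of 3 genes are shown in the direction of transcription, with matches in capitals: that of the regulator, that of the target that differed most between the lines, and that of the target that fell most with time in untreated vector cells. They lie at chr2:75704664-75704913 (minus strand), chr8:107403206-107403455 (minus strand) and chr2:152105274-152105523 (plus strand).
Nfe2l2: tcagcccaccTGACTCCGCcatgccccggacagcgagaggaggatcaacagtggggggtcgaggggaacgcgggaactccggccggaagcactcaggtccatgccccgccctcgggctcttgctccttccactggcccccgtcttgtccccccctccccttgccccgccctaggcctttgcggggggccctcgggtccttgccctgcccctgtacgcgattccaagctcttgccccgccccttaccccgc
Nqo1: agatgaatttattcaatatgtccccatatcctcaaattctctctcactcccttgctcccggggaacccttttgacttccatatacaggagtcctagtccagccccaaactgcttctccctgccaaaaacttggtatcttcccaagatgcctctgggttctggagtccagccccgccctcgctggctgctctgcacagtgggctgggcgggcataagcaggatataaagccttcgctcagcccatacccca
Srxn1: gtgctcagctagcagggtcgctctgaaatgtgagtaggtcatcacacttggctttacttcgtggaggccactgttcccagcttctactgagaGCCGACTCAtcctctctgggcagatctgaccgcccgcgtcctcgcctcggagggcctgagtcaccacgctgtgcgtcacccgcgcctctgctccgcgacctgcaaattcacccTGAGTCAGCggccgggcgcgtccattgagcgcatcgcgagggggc
The Nfe2l2 promoter held 1 match to TGACNNNGC, that of Srxn1 held 2 matches to TGAGNNNGC, and that of Nqo1 held neither form in this window. Gclm had 1 match to TGACNNNGC and Slc7a11 1 to TGAGNNNGC, while 1 of the 3 Txnrd1 promoters had a TGACNNNGC match and Keap1 had none. Hmox1, Gclc and Gsr were not in the table. A match in these letters describes the sequence, and binding of NRF2 was not measured.

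Anxa2 itself, the target of the shRNA, lay between 10.58 and 11.23 on the 24 shRNA arrays and between 12.25 and 12.66 on the 23 vector arrays (log2 signal), 34.2% of the vector level in untreated cells. Of 7 epidermal and simple epithelial markers, 3 lay above the low-signal limit of 4.35 by their mean over all arrays. Cdh1, Epcam, Trp63 and Krt18 did not, and Krt14 had a median of 6.63 in the shRNA line and 3.89 in the vector line. 5 of 6 fibroblast and mesenchymal markers lay above the limit, with medians in shRNA and vector cells of 13.30 and 13.01 for Vim, 12.96 and 12.25 for Col1a2, 11.37 and 10.82 for Col1a1, 11.54 and 11.06 for Col3a1 and 8.67 and 9.06 for Pdgfrb. Thy1 lay below it in both lines. Of 4 leukocyte markers, Ptprc and Cd68 lay below the limit by their mean and Cd14 and Cd3e above it, with medians in shRNA and vector cells of 8.07 and 7.57 for Cd14 and 5.59 and 5.48 for Cd3e. The part of these marker differences in the line differences below was not tested. The third replicate of vector cells at 2 h differed from its group in untreated cells and after each dose. On these 3 arrays, called the deviating vector arrays here, between 6.57% and 14.9% of tested genes lay more than 0.5 from the mean of the other arrays of the group, against a median of 1.73% over the other 44 arrays (0.173% to 15.4%, the highest being shRNA replicate 2 at 2 h after 100 cGy). 4 arrays had a Gapdh signal at the 3' end more than 0.3 above that at the 5' end, a sign of shortened RNA or cDNA. They were replicate 3 of untreated vector cells at 2 h, replicate 1 of untreated shRNA cells at 2 h, replicate 2 of shRNA cells 2 h after 100 cGy and replicate 1 of shRNA cells 6 h after 10 cGy. Both sets hold replicate 3 of untreated vector cells at 2 h, so leaving out each set does not give independent checks. Calls on the 10 genes that were gained or lost without either set of arrays are given beside the results.

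The first comparison asked how the genes differed between the AnxA2 shRNA line and the vector line. Nfe2l2 and its target Nqo1 were lower in shRNA cells in each of the 8 conditions, with no overlap between arrays of the lines. The share of all tested genes that separated the lines in this way was not counted. Hmox1, which degrades heme, was also lower, most at 24 h. The 2 subunits of glutamate-cysteine ligase went the other way: Gclc was higher in shRNA cells at 24 h, and Gclm was higher where it passed the test. Gsr and Slc7a11 passed in no condition. In untreated cells, taken as the mean of 2 and 24 h, 3 of the 10 genes were called lower and 1 higher, where called means an adjusted p under 0.05 (limma, Benjamini-Hochberg over 8675 tested genes). In that comparison 48.2% of the tested genes were called, 24.1% lower and 24.1% higher, so the count of 4 in 10 is near the background of this pair of lines. Without the deviating vector arrays 7 of the 10 were called, where 50% of tested genes were, and without the 4 Gapdh arrays also 7, where 48.7% were. Both fits leave out replicate 3 of untreated vector cells at 2 h.

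Condition by condition, between 2 and 5 of the 10 genes were called. In untreated cells 3 of the 10 genes were called at 2 h, all lower (background 33.8%, 17.5% lower), and 4 at 24 h, 3 lower and 1 higher (background 39.3%, 19.9% lower and 19.4% higher). After 10 cGy 2 were called at 2 h, both lower (background 33.4%, 17.7% lower), 2 at 6 h, both lower (background 35.7%, 18.1% lower and 17.6% higher), and 4 at 24 h, 3 lower and 1 higher (background 33.7%, 18.2% lower and 15.6% higher). After 100 cGy 5 were called at 2 h, 4 lower and 1 higher (background 40%, 21.4% lower and 18.6% higher), 4 at 6 h, 2 in each direction (background 37.2%, 18.8% lower and 18.4% higher), and 4 at 24 h, 3 lower and 1 higher (background 38.3%, 21.8% lower and 16.5% higher). Averaged over the 8 conditions, 6 were called, 4 lower and 2 higher, in a comparison that called 68.9% of tested genes (33.9% lower and 34.9% higher). Txnrd1 and Srxn1 joined them as lower without the deviating vector arrays (-0.11 and -0.17, adjusted p = 0.00126 and 6.94e-05) and without the 4 Gapdh arrays (-0.08 and -0.13, adjusted p = 0.0386 and 0.00869). Both were also called lower with all arrays kept and probe sets averaged, at -0.17 and -0.19 (adjusted p = 0.0272 and 0.00118). The members that made up these counts were mostly Nfe2l2 and Nqo1, which passed in each condition. Averages over doses take arrays as independent, but same-numbered arrays of a line and time deviated together in part. The p-values of such averages may thus be too small.

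**Figure D1:**
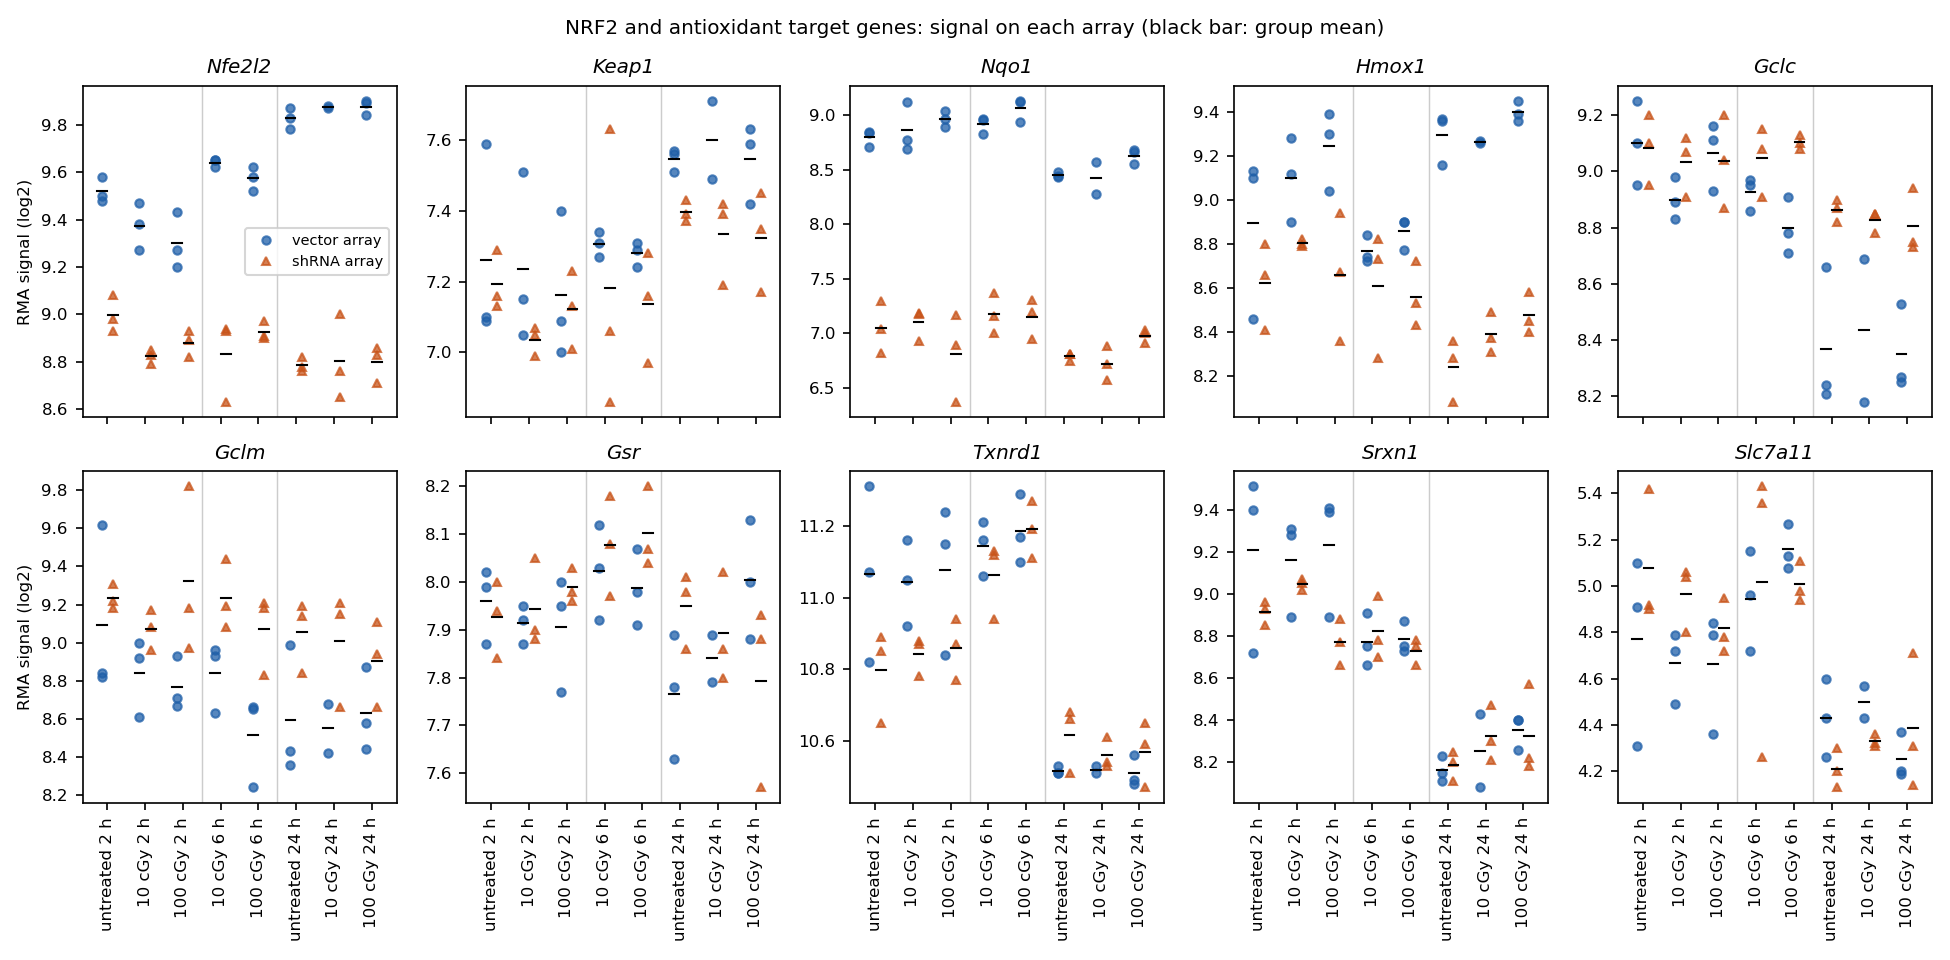
RMA signal (log2) of the 10 genes on each of the 47 arrays, by condition, with vector arrays as blue circles, shRNA arrays as orange triangles and group means as black bars. Scales differ between panels. Nfe2l2 and Nqo1 show 2 separate bands, with shRNA arrays at 8.63 to 9.08 and 6.37 to 7.37 and vector arrays at 9.20 to 9.90 and 8.28 to 9.13, while Srxn1, Txnrd1 and Slc7a11 are low at 24 h in both lines.

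Nfe2l2 RNA in untreated vector cells was 9.48, 9.50 and 9.58 on the 3 arrays at 2 h and 9.78, 9.87 and 9.83 at 24 h. In untreated shRNA cells it was 8.98, 8.93 and 9.08 at 2 h and 8.82, 8.78 and 8.76 at 24 h. Every shRNA array was thus below every vector array, and the gap was wider at 24 h. Over untreated cells the difference, shRNA minus vector, was -0.78 ± 0.06 (log2, SE; adjusted p = 1.17e-14), 58.1% of the vector signal. It was -0.53 at 2 h (adjusted p = 1.45e-06) and -1.04 at 24 h (adjusted p = 1.25e-13). Over the 8 conditions it ran from -1.08 to -0.42 and was called lower in 8, and shRNA cells held 47.4% to 74.7% of the vector signal. In order of group means, the 3 vector groups at 24 h stood highest (9.83 to 9.88), followed by vector at 6 h (9.57 and 9.64) and vector at 2 h (9.30 to 9.52). The 8 shRNA groups lay between 8.79 and 9.0, and neighbours in that order overlapped.

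Keap1, the inhibitor that targets NRF2 for degradation, had similar ranges in the lines. Its 24 shRNA arrays ran from 6.86 to 7.63 with a median of 7.18, and its 23 vector arrays from 7.0 to 7.71 with a median of 7.34. The ranges overlapped. The difference was below 0 in 8 of 8 conditions (-0.27 to -0.04) but called in 0 of them, and in untreated cells it was -0.11 (adjusted p = 0.377). At 6 h after 10 cGy it moved from -0.12 to -0.35 and was called without shRNA replicate 1 alone (adjusted p = 0.0369), the array with the largest Gapdh difference, and without the 4 Gapdh arrays (adjusted p = 0.0177). Averaged over the 8 conditions it was -0.15 ± 0.05 (adjusted p = 0.00605) and called, with a p-value that may be too small, as for the other averages. A second Keap1 probe set gave -0.25 for the same average.

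Nqo1 encodes a quinone reductase and is among the most used readouts of NRF2. Untreated vector cells had values of 8.84, 8.85 and 8.71 at 2 h and 8.43, 8.48 and 8.44 at 24 h. The shRNA arrays read 6.82, 7.04 and 7.30 at 2 h and 6.81, 6.81 and 6.75 at 24 h. The lowest vector array of any condition (8.28) was above the highest shRNA array (7.37). The untreated difference was -1.70 ± 0.10 (adjusted p = 1.17e-17), 30.7% of the vector signal, and over the 8 conditions it lay between -2.15 and -1.65 and was called lower in 8. Nqo1 is also a known target of the aryl hydrocarbon receptor. Ahr, which encodes that receptor, had signals of 6.81 to 8.07 on the vector arrays and 3.53 to 4.41 on the shRNA arrays, where the low-signal limit was 4.35. The part of Ahr in the Nqo1 difference was not tested.

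Hmox1, the heme oxygenase that releases biliverdin, iron and carbon monoxide, depended more on time. At 24 h untreated vector arrays read 9.36, 9.16 and 9.37 and untreated shRNA arrays 8.36, 8.28 and 8.08, with no overlap. At 2 h vector arrays read 9.10, 9.13 and 8.46 and shRNA arrays 8.41, 8.66 and 8.80. Here the vector array at 8.46, one of the deviating arrays, fell inside the shRNA range. The difference was -1.05 at 24 h in untreated cells, -0.88 and -0.93 a day after 10 and 100 cGy, and -0.59 at 2 h after 100 cGy, all called. In the other 4 conditions, at 2 and 6 h, it was not called, with -0.16 at 6 h after 10 cGy as the smallest. Over untreated cells it was -0.66 ± 0.10 (adjusted p = 8.29e-07), 63.1% of vector. Of these 4, all but that at 6 h after 10 cGy were called once arrays were left out. Without the deviating vector arrays the value was -0.49 in untreated cells at 2 h (adjusted p = 0.00315), -0.39 at 2 h after 10 cGy (adjusted p = 0.0174) and -0.29 at 6 h after 100 cGy (adjusted p = 0.0423). Without the 4 Gapdh arrays the adjusted p was 0.011, 0.0144 and 0.0129.

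Glutathione is made by glutamate-cysteine ligase, whose catalytic subunit is Gclc and whose modifier subunit is Gclm. Gclc in untreated cells at 24 h read 8.24, 8.66 and 8.21 on vector arrays and 8.90, 8.82 and 8.87 on shRNA arrays. The shRNA arrays were higher without overlap. At 2 h the lines overlapped, with 8.95, 9.10 and 9.25 on vector arrays and 8.95, 9.20 and 9.10 on shRNA arrays. Gclc was called higher in 4 of 8 conditions: by 0.50 (untreated), 0.39 (10 cGy) and 0.46 (100 cGy) at 24 h, and by 0.30 at 6 h after 100 cGy. The 10 cGy value was 0.13 (adjusted p = 0.583) without replicate 3 of the vector cells, and that at 6 h was lost in 5 of 6 fits that left out 1 array (adjusted p = 0.0601 to 0.123), all but that without vector replicate 3. The untreated difference was 0.24 ± 0.08 (adjusted p = 0.0122). A second Gclc probe set gave 0.16 in untreated cells, not called (adjusted p = 0.202). For the average of 8 conditions it gave 0.18 where the first gave 0.23.

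Gclm was above the vector mean in 8 of 8 conditions, by 0.14 to 0.55, and called in 2, at 2 h and 6 h after 100 cGy, with 0.55 in both. Averaged over the 8 conditions Gclm was 0.38 higher and called. Its arrays scattered more than those of the other subunit. In untreated vector cells at 2 h they read 8.82, 8.84 and 9.62, the last being a deviating array, and 2 h after 100 cGy shRNA arrays read 9.18, 9.82 and 8.97. In untreated cells the difference was 0.30 ± 0.14 (adjusted p = 0.0726) and not called. Without the deviating vector arrays it was 0.43 (adjusted p = 0.0065), and without the 4 Gapdh arrays 0.42 (adjusted p = 0.00676). Untreated cells at 24 h (0.46) were then called as well (adjusted p = 0.0348 and 0.0197), as were cells 24 h after 10 cGy (0.46) without the Gapdh arrays (adjusted p = 0.0434). Without the 4 arrays with a raised Gapdh difference the value at 2 h after 100 cGy was 0.31 (adjusted p = 0.193), and without shRNA replicate 2, vector replicate 1 or vector replicate 3 it was 0.31, 0.52 and 0.51 (adjusted p = 0.268, 0.0656 and 0.0764). The call at 6 h ended without shRNA replicate 1 or 3 or vector replicate 1 (adjusted p = 0.0867, 0.0975 and 0.149).

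Gsr, which reduces oxidised glutathione, was called in 0 of 8 conditions, with differences from -0.21 to 0.18. The shRNA arrays lay between 7.57 and 8.20 and the vector arrays between 7.63 and 8.13, so the ranges overlapped. At 24 h after 100 cGy its value of -0.21 became -0.27 and called without shRNA replicate 3 (adjusted p = 0.0306) or vector replicate 1 (adjusted p = 0.0362). Slc7a11, the cystine carrier that supplies cysteine for glutathione, was also called in 0 of 8, with differences from -0.22 to 0.31. At 6 h after 10 cGy it moved from 0.07 to 0.45 and was called without shRNA replicate 1 alone (adjusted p = 0.0431) and without the 4 Gapdh arrays (adjusted p = 0.0175). Its signal was low, between 4.13 and 5.43 over all arrays, around the low-signal limit.

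Txnrd1 reduces thioredoxin, and Srxn1 restores overoxidised peroxiredoxins. Neither was called between the lines in untreated cells (-0.09, adjusted p = 0.311, and -0.14, adjusted p = 0.274). Txnrd1 was called lower in 1 condition, untreated 2 h (-0.27, adjusted p = 0.026), where vector arrays read 11.07, 11.31 and 10.82 and shRNA arrays 10.85, 10.89 and 10.65. The ranges overlapped. The call was lost without shRNA replicate 3 or vector replicate 1 or 2 (adjusted p = 0.163, 0.0594 and 0.264) and when probe sets were averaged (adjusted p = 0.136). Srxn1 was called lower in 1 condition, 2 h after 100 cGy (-0.46, adjusted p = 0.00893), where vector arrays read 9.41, 9.39 and 8.89 and shRNA arrays 8.77, 8.66 and 8.88. The groups did not overlap, and the call was lost without vector replicate 1 or 2 (adjusted p = 0.0649 and 0.0573). Without the deviating vector arrays, untreated cells gave called values of -0.15 for Txnrd1 (adjusted p = 0.0333) and -0.26 for Srxn1 (adjusted p = 0.00244), and without the 4 Gapdh arrays -0.16 and -0.24 (adjusted p = 0.0481 and 0.0271). Srxn1 was then also called in untreated cells at 2 h, at -0.54 and -0.51 (adjusted p = 1.08e-04 and 0.00561). Txnrd1 was called without the deviating vector arrays at 2 h after 10 cGy (-0.26, adjusted p = 0.0174) and 100 cGy (-0.34, adjusted p = 0.0021). With its probe sets averaged Txnrd1 was also called at 2 h after 100 cGy (-0.55, adjusted p = 0.0187).

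**Figure D2:**
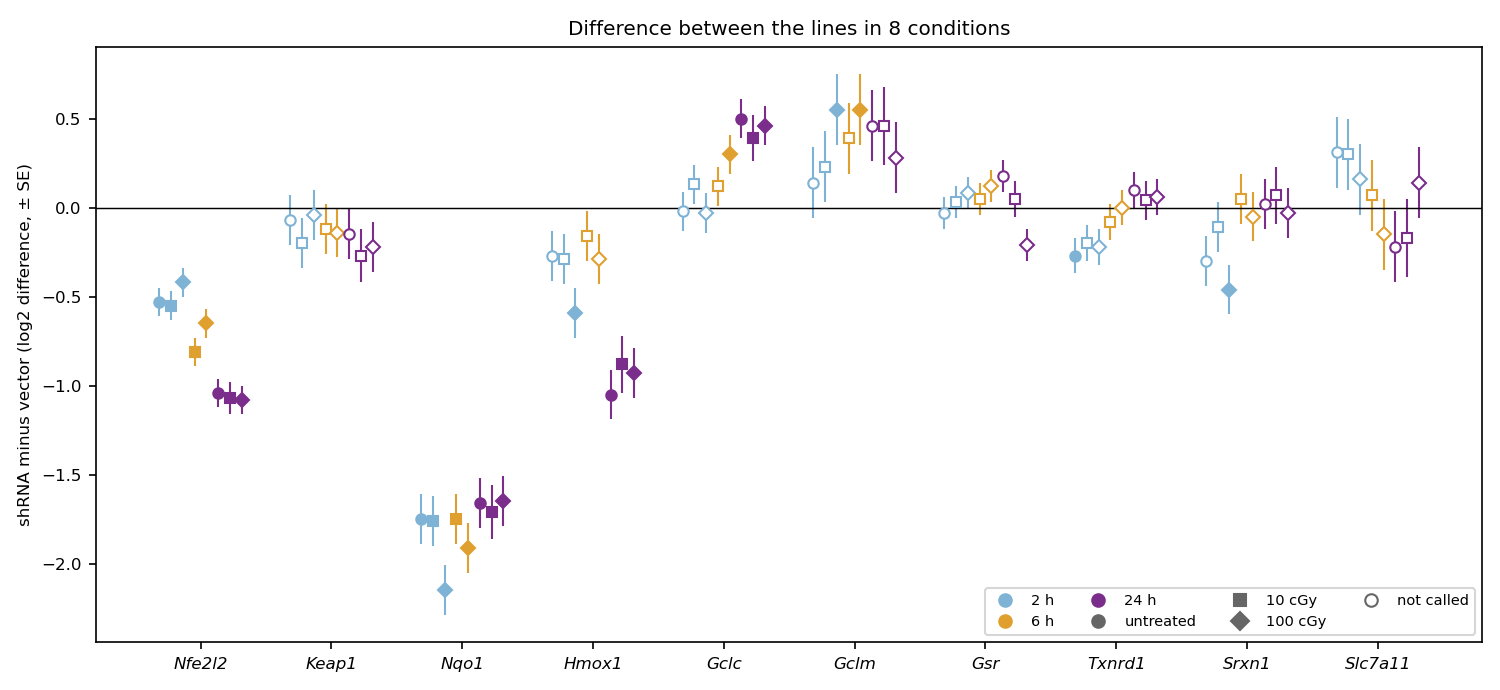
Difference between the lines (shRNA minus vector, log2, with SE) for each gene in the 8 conditions. Colour gives the time, shape the dose, and open symbols were not called. Nqo1 lies between -2.15 and -1.65 at every time, while Nfe2l2 and Hmox1 are furthest below 0 at 24 h, at -1.08 to -1.04 and -1.05 to -0.88.

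The second comparison asked how the genes changed with time, in untreated and in irradiated cells. Untreated cells were not taken at 6 h. Changes to or from 6 h in irradiated cells therefore cannot be told apart from changes with time in culture. In untreated vector cells from 2 to 24 h, Srxn1, Gclc and Txnrd1 fell and Nfe2l2 and Hmox1 rose. In untreated shRNA cells, Srxn1 and Slc7a11 fell and none of the 10 rose. In irradiated cells of both lines (mean of 10 and 100 cGy), Nqo1, Gclc, Txnrd1, Srxn1 and Slc7a11 fell from 6 to 24 h, while Nfe2l2, Keap1 and Hmox1 rose in vector cells. Keap1 read 0.17 in shRNA cells (adjusted p = 0.17), and its change was not called different between the lines (-0.11, 95% interval -0.40 to 0.17).

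Srxn1 in untreated vector cells went from 9.40, 9.51 and 8.72 at 2 h to 8.23, 8.15 and 8.11 at 24 h. In untreated shRNA cells it went from 8.85, 8.96 and 8.93 to 8.20, 8.25 and 8.11. The times did not overlap in either line. The change was -1.04 ± 0.14 in vector cells (adjusted p = 5.51e-07), to 48.5% of the 2 h signal, and -0.73 ± 0.14 in shRNA cells (adjusted p = 2.66e-04), to 60.5%. Of the other 3 Srxn1 probe sets, those with mean signals of 7.16 and 7.10 gave -0.84 and -0.83 in vector cells, and that with a mean of 5.94 gave 0.02. In shRNA cells these 3 probe sets gave -0.50, -0.55 and 0.10, none of them called (adjusted p = 0.22, 0.228 and 0.816).

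Txnrd1 in untreated vector cells fell from 11.07, 11.31 and 10.82 to 10.53, 10.51 and 10.51, a change of -0.55 ± 0.10 (adjusted p = 3.28e-05). All 3 arrays at 24 h were below all 3 at 2 h. With its 3 probe sets averaged it was -0.38 (adjusted p = 0.134). In shRNA cells the values were 10.85, 10.89 and 10.65 at 2 h and 10.66, 10.68 and 10.51 at 24 h, and the change of -0.18 was not called. Gclc in untreated vector cells changed by -0.73 ± 0.11 (adjusted p = 4.98e-06), to 60.3% of its 2 h signal. Slc7a11 in untreated shRNA cells read 4.90, 4.92 and 5.42 at 2 h and 4.13, 4.20 and 4.30 at 24 h, a change of -0.87 ± 0.20 (adjusted p = 0.00129) that ends below the low-signal limit. In vector cells its change was -0.35 and not called, but it was -0.58 and called without replicate 3 at 2 h alone (adjusted p = 0.0369) and without either set of arrays (adjusted p = 0.0286 and 0.0037).

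Nfe2l2 rose in untreated vector cells by 0.31 ± 0.08 (adjusted p = 0.0035), without overlap between the times, and Hmox1 by 0.40 ± 0.14 (adjusted p = 0.0357). When the fit held these groups alone, the adjusted p was 0.0693 for Nfe2l2 and 0.187 for Hmox1. Without the vector array at 8.46, the Hmox1 value was 0.18 (adjusted p = 0.391), and the call also ended without replicate 1 or 3 at 24 h (adjusted p = 0.108 and 0.123). In all, 5 of 10 genes were called in untreated vector cells, where 25.9% of tested genes were, 2 of them higher (background 13%) and 3 lower (background 12.9%). In untreated shRNA cells 2 of 10 were called, both lower, where 19.2% of tested genes were called and 9.14% lower. Nfe2l2 in shRNA cells was at -0.21 (adjusted p = 0.0567), and 6 of 8 other settings called it lower.

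Further calls with time in untreated cells appeared when arrays were left out. In vector cells Keap1 went from 0.29 to 0.45 (adjusted p = 0.00673 without the deviating vector arrays and 0.00312 without the Gapdh arrays), and Nqo1 from -0.35 to -0.40 (adjusted p = 0.0422 and 0.0125). Gclm, at -0.50, was called without replicate 1 or 2 at 2 h or replicate 2 at 24 h (-0.63, -0.62 and -0.69). In shRNA cells Hmox1, at -0.38, was called in both fits (adjusted p = 0.0145 and 0.00104), and Nqo1 at -0.38 without the Gapdh arrays (adjusted p = 0.0204). Hmox1 in vector cells lost its call in both (0.18, adjusted p = 0.349 and 0.231).

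In irradiated vector cells, without untreated cells at 6 h to compare, 3 of the 10 genes changed from 2 to 6 h (background 16.7%, 8.9% higher and 7.82% lower): Nfe2l2 rose by 0.27, Hmox1 changed by -0.36 and Srxn1 by -0.42. In irradiated shRNA cells 1 did (background 21.5%, 12% higher), Txnrd1, which rose by 0.27 ± 0.07 (adjusted p = 0.00287) and was not called (adjusted p = 0.133) when its 3 probe sets were averaged. From 6 to 24 h, 8 of 10 were called in vector cells, 3 higher and 5 lower (background 39%, 22.4% higher and 16.5% lower). In shRNA cells 6 of 10 were called, all lower (background 39.2%, 18.6% lower). In vector cells Nfe2l2 rose by 0.27, Keap1 by 0.28 and Hmox1 by 0.52, and Nqo1 changed by -0.46, Gclc by -0.47, Txnrd1 by -0.65, Srxn1 by -0.47 and Slc7a11 by -0.68. In shRNA cells the changes were -0.31 for Nqo1, -0.26 for Gclc, -0.24 for Gsr, -0.56 for Txnrd1, -0.45 for Srxn1 and -0.66 for Slc7a11. The line difference in the falls of Txnrd1, Srxn1 and Slc7a11 was 0.09, 0.02 and 0.02, with 95% intervals of -0.11 to 0.29, -0.28 to 0.32 and -0.39 to 0.43. The Keap1 rise was lost without replicate 1 of the vector cells at 24 h after 10 cGy (0.23, adjusted p = 0.143) and without replicate 2 at 24 h after 100 cGy (0.26, adjusted p = 0.0578). In irradiated shRNA cells Keap1 was called higher at 24 h without shRNA replicate 1 at 6 h after 10 cGy or without the 4 Gapdh arrays (0.28, adjusted p = 0.00952 and 0.00366) and with its probe sets averaged (0.36, adjusted p = 5.30e-04), and its second probe set alone gave 0.56 (adjusted p = 8.41e-04). Without the 4 Gapdh arrays Hmox1 was called lower there (-0.24, adjusted p = 0.00888), and Slc7a11 was called higher at 6 h than at 2 h in irradiated vector cells (0.39, adjusted p = 0.003). The falls of Srxn1 and Gsr in irradiated shRNA cells were not called when probe sets were averaged (adjusted p = 0.162 and 0.499). For the Gclc fall there, the second probe set alone gave -0.12, not called (adjusted p = 0.402).

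**Figure D3:**
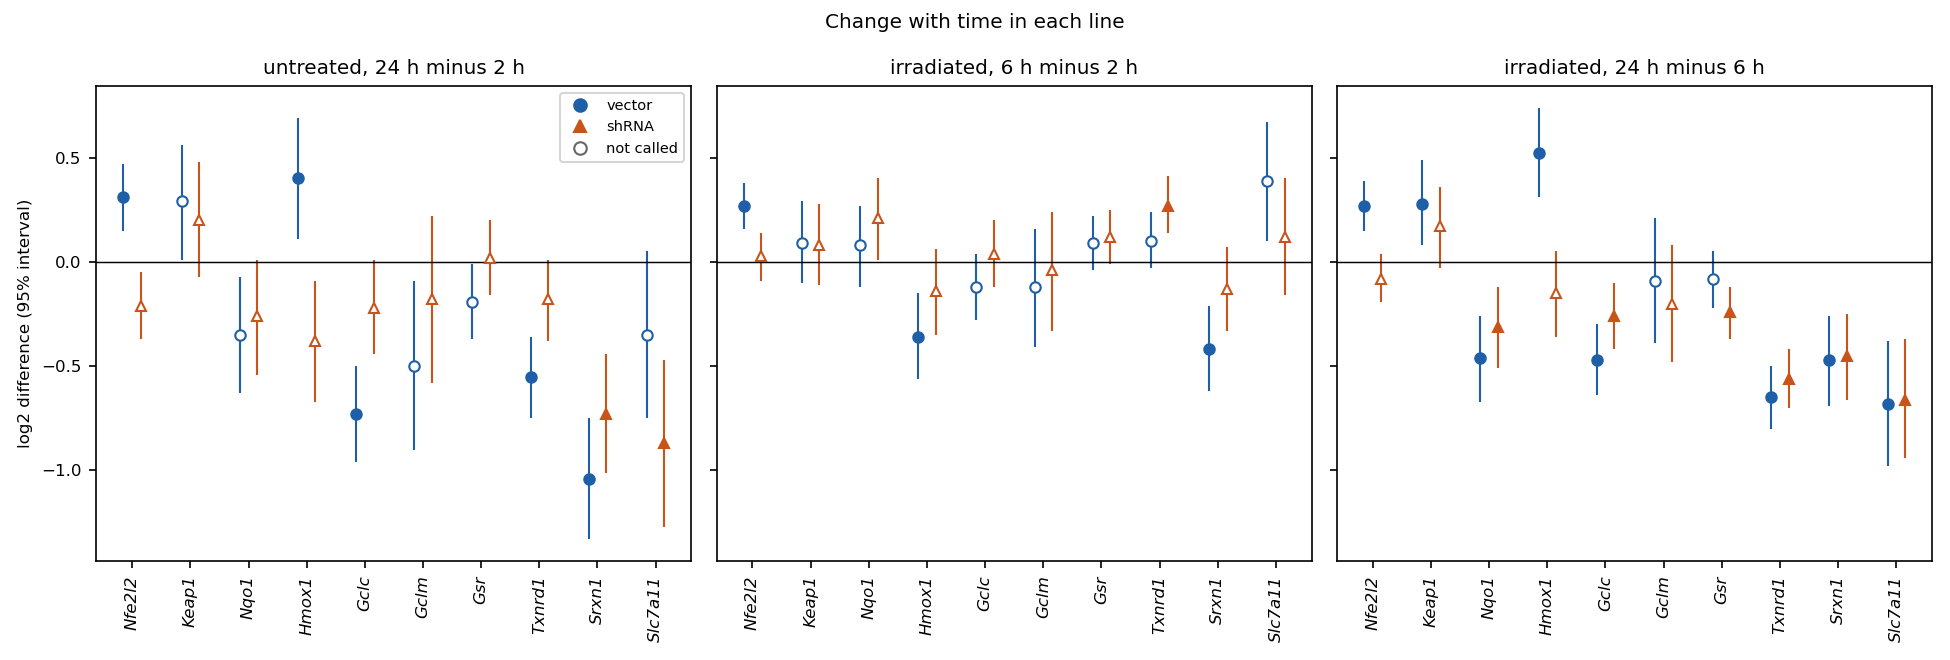
Change with time (log2, 95% interval) of each gene in vector cells (blue circles) and shRNA cells (orange triangles), in untreated cells from 2 to 24 h and in irradiated cells from 2 to 6 h and from 6 to 24 h. Open symbols were not called. In the panels for untreated cells and for 6 to 24 h, Nfe2l2 and Hmox1 lie above 0 in vector cells (0.27 to 0.52) and below 0 in shRNA cells (-0.38 to -0.08).

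Whether the lines changed differently with time was tested directly. In untreated cells the change from 2 to 24 h differed for 3 of the 10 genes, where 5.69% of tested genes differed (2.97% higher and 2.72% lower). Nfe2l2 rose in vector cells and read -0.21 in shRNA cells (not called), a difference of -0.52 ± 0.11 (adjusted p = 0.00294). For Hmox1 the change was 0.40 in vector and -0.38 in shRNA cells, a difference of -0.78 ± 0.20 (adjusted p = 0.0139). For Gclc it was -0.73 and -0.22, a difference of 0.51 ± 0.16 (adjusted p = 0.0486). From 6 to 24 h after irradiation 2 of the 10 differed, with a background of 10.1% (6.2% lower): Nfe2l2 by -0.35 ± 0.08 (adjusted p = 0.00348) and Hmox1 by -0.68 ± 0.15 (adjusted p = 0.00151). From 2 to 6 h after irradiation 0 of 10 did by limma, 1 of them with an unadjusted p under 0.05, with a background of 2.85%. Without the deviating vector arrays 2 of the 10 did, Nfe2l2 (-0.30, adjusted p = 0.0208) and Srxn1 (0.44, adjusted p = 0.00528), with a background of 5.33%. In the untreated comparison the same fit also called Txnrd1 (0.49, adjusted p = 0.00575) and Srxn1 (0.57, adjusted p = 0.0107), and without the 4 Gapdh arrays Txnrd1 was at 0.52 (adjusted p = 0.017). The Gclc difference was lost in 4 of 8 other settings, among them that without the deviating vector arrays (0.44, adjusted p = 0.121) and in 9 of 12 fits that left out 1 array. That of Hmox1 in untreated cells was lost when the fit held these groups alone (adjusted p = 0.105) and in 3 of 12 such fits, those without replicate 3 of vector 2 h (-0.56, adjusted p = 0.081), shRNA 2 h (adjusted p = 0.0587) or shRNA 24 h (adjusted p = 0.0562).

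The third comparison asked whether X-rays changed these genes. 0 of the 10 were called at either dose and either time in either line, nor between 100 and 10 cGy at 6 h, by limma over 10 comparisons that called between 0% and 0.161% of all tested genes. Among the 100 values, 4 had an unadjusted p under 0.05. Of those 10 comparisons, the 4 of 100 cGy with untreated cells called 0.0461% (2 h vector), 0.0231% (2 h shRNA), 0.0922% (24 h vector) and 0.161% (24 h shRNA). At 10 cGy 0% and 0.0115% were called at 2 h and 0.0115% and 0% at 24 h, in vector and shRNA cells, and between the doses at 6 h 0.0922% and 0%. The largest rise was Hmox1 at 2 h after 100 cGy in vector cells, from 9.10, 9.13 and 8.46 in untreated cells to 9.39, 9.30 and 9.04. The ranges overlapped, and the difference of 0.35 ± 0.14 (95% interval 0.06 to 0.64) had an adjusted p of 0.383. The smallest adjusted p, 0.337, was that of Nfe2l2 in the same cells, at -0.22 ± 0.08, with 9.27, 9.20 and 9.43 after 100 cGy against 9.48, 9.50 and 9.58. The largest fall was that of Gclm, by 0.32 on the log2 scale in the same cells (95% interval -0.72 to 0.08). Of the 100 intervals, 94 lay within a 1.5-fold change either way, and the widest bound was 1.65-fold. A line difference in the response was called by limma for 0 of 50 values, from 5 comparisons of the 10 genes, 2 of them with an unadjusted p under 0.05. Those comparisons called at most 0.0807% of tested genes.

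Genes known to respond to radiation were read in the same cells. Mdm2, a p53 target that restrains p53, rose by 0.88 at 2 h after 100 cGy in vector cells (adjusted p = 7.67e-06) and by 0.63 in shRNA cells (adjusted p = 0.00463). Cdkn1a, the p53 target that halts the cell cycle, rose by 0.61 at 2 h (adjusted p = 0.00719) and by 0.82 at 24 h (adjusted p = 1.03e-04) in vector cells. In shRNA cells Cdkn1a was not called at 2 h (0.22, adjusted p = 0.909) or 24 h (0.05, adjusted p = 0.961), and its response at 24 h differed between the lines by -0.77 (adjusted p = 0.0303). Mdm2 was not called at 24 h in vector cells (0.24) or shRNA cells (0.07). These genes thus passed in 4 of their 8 tests of 100 cGy, and in shRNA cells at 24 h neither did.

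**Figure D4:**
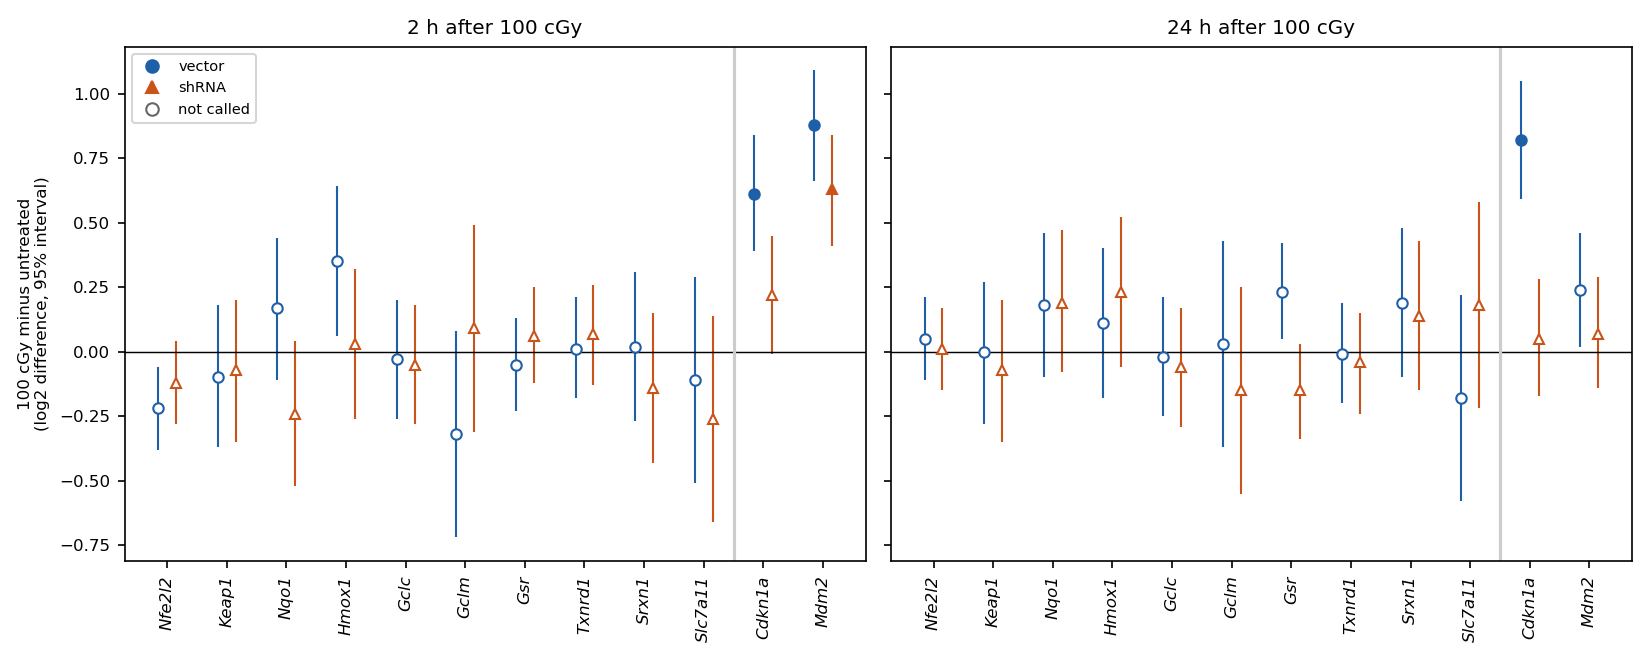
Response to 100 cGy (100 cGy minus untreated, log2, 95% interval) of the 10 genes and, right of the line, of the p53 targets Cdkn1a and Mdm2, at 2 and 24 h in vector cells (blue circles) and shRNA cells (orange triangles). Open symbols were not called. The 10 genes lie between -0.32 and 0.35, and Mdm2 at 2 h in vector cells is at 0.88.

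Other genes of the pathway were taken from a list of 46, of which 39 were on the array and 37 passed the low-signal filter. In untreated cells 14 of the 37 were lower and 9 higher in the shRNA line, with a median difference of -0.13, against 0.02 over all 8675 tested genes and the 48.2% called above. Of 8 glutathione genes 5 were lower and 1 higher, and of 5 genes that supply NADPH 3 were lower and 0 higher. Among the lower genes were Idh1 (-1.33), the cytosolic enzyme that makes NADPH from isocitrate, and the glutathione S-transferases Gsta4 (-0.98) and Gstm1 (-0.78). Of 6 quinone, carbonyl and xenobiotic genes 2 were higher, Ephx1, the microsomal epoxide hydrolase (0.87), and the carbonyl reductase Cbr1 (0.92), and 3 were lower. Among 9 regulators 4 were higher and 2 lower, with Mafk, a small MAF partner of NRF2, at 0.62. Of 3 thioredoxin and peroxiredoxin genes 0 were called, of 3 heme and iron genes 1 was higher and 1 lower, and of 3 further targets 1 was higher. The list held called genes in both directions, 23 of 37, in a comparison that called 48.2% of all tested genes.

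**Figure D5:**
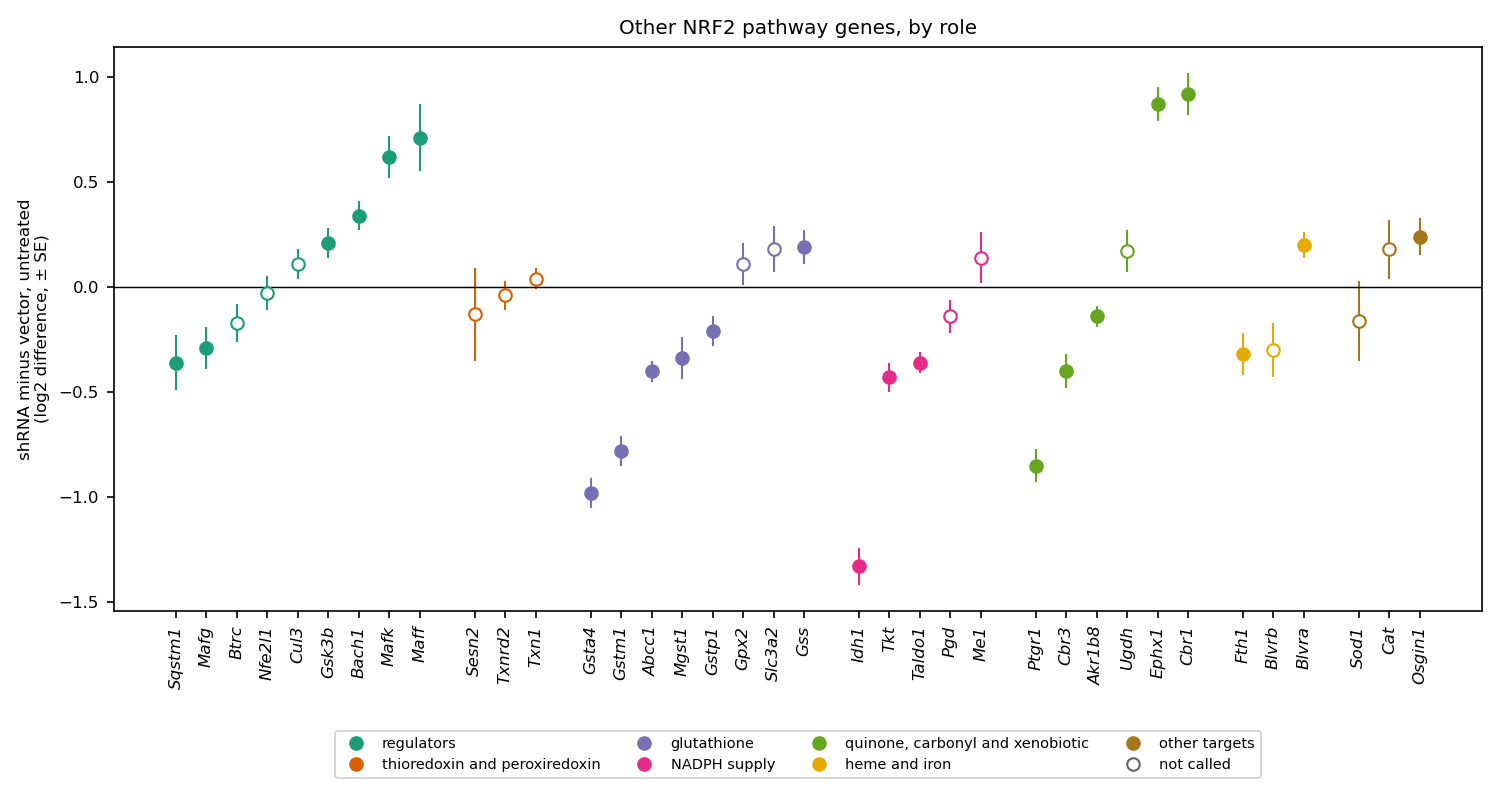
Difference between the lines in untreated cells (shRNA minus vector, log2, with SE) for the 37 tested other genes of the pathway, coloured by role. Open symbols were not called. The glutathione and NADPH groups hold most of the lower genes, with Idh1 at -1.33 and Gsta4 at -0.98, and Ephx1 and Cbr1 are at 0.87 and 0.92.

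With time in untreated cells, 6 of the 37 rose and 5 fell in vector cells, and 8 rose and 5 fell in shRNA cells, against 25.9% and 19.2% of all genes called. In vector cells Idh1 rose by 1.10, the microsomal glutathione transferase Mgst1 by 1.07 and Gstm1 by 0.65. Ugdh, which makes UDP-glucuronate, changed by -0.78, the glutathione conjugate exporter Abcc1 by -0.41 and the small MAF gene Maff by -0.99. In shRNA cells Mgst1 rose by 0.88, Gstm1 by 0.54 and Gsta4 by 0.47, and Ugdh changed by -0.79, Abcc1 by -0.43 and Maff by -1.06. In the dose comparisons 0 of the 37 were called by limma.

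Across the 16 group means, Nfe2l2 ran with Nqo1 (Pearson's r = 0.86) and Hmox1 (r = 0.84) and against Gclm (r = -0.79). Txnrd1 ran with Slc7a11 (r = 0.8) and Srxn1 (r = 0.79), and Keap1 against Gclc (r = -0.91). With Nfe2l2, Txnrd1 had an r of -0.07 and Srxn1 of -0.1. From 6 to 24 h after irradiation Nfe2l2 and Nqo1 changed by 0.27 and -0.46 in vector cells. In shRNA cells they changed by -0.08 and -0.31. Their r of 0.86 thus does not mean that they changed together with time in vector cells. The r values describe 16 means that share lines and times, and no test was made on them. Over the same means and all tested genes, the closest to Nfe2l2 were Secisbp2l (r = 0.982), Apool (r = 0.979) and Aldh7a1 (r = 0.978). Those closest to Nqo1 were Grem1, Smox and Map2k6, each with r = 0.993, and to Hmox1 Pdzd11 (r = 0.938), Nudt8 and Dtymk (both r = 0.937). Closest to Slc7a11 were Ccdc137 (r = 0.95), Rwdd4a (r = 0.946) and Mcfd2 (r = 0.932).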

How the data were processed

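RNA was measured on 47 Affymetrix arrays. The authors deposited log2 values made with RMA, per the submitters' processing notes, which run from 1.84 to 14.03, with array medians of 5.66 to 5.78. They were used as deposited. The 10 genes and the gene lists were chosen with earlier results of these data known.

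Of 22690 probe sets, 64 controls, 691 with several gene symbols and 1555 with none were left out, and 20380 with 1 symbol covered 12393 genes. The probe set with the highest mean was taken for each gene, and the 30% of genes with the lowest mean (under 4.35) were left out, which left 8675. All 10 genes passed. limma 3.58.1 (R 4.3.3) fitted 16 group means to all arrays, with 31 residual and 5.68 prior degrees of freedom. P-values are two-sided and adjusted by Benjamini-Hochberg over all 8675 genes within a contrast, and called under 0.05. The fit was tested on simulated data. Precision is limited by how many arrays a group has. Differences are in log2 units and percentages of a signal are back-transformed. A group reduced to 1 or 2 arrays is taken to vary like the others.

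Named were the 10 genes in every comparison, up to 3 other pathway genes a direction with the smallest p in the untreated line and time comparisons, the 3 genes most similar to each of 4 members, and Anxa2, Ahr, Cdkn1a and Mdm2. The lists of epidermal, fibroblast, leukocyte, melanocyte and endothelial markers had 3 of 7, 5 of 6, 2 of 4, 0 of 2 and 1 of 3 members on the array above the low-signal limit. Same-numbered arrays of a line and time deviated together in part: 27 of 40 pairs correlated over 0.1 (median r 0.23). In vector cells 8 of 9 pairs did at 2 h (median r 0.48), 0 of 3 at 6 h and 7 of 7 at 24 h (median r 0.19). The main fit takes arrays as independent, so p-values for averages over doses may be too small. A fit with the replicate number as a block was run as an alternative. For the dose comparisons the block was set within each line and time. For the other comparisons it was shared by all lines and times, across which same-numbered arrays hardly correlated (median r 0.04). The alternatives were no filter, probe set means, median-centred arrays, an intensity trend in the variance, that block, only the compared groups, and arrays left out.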

Additional observations from a re-analysis of the deposited data

Results flagged for a closer look

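The change with time differed between the lines for 5 gene and comparison pairs, by a test of the difference itself (limma, adjusted p), and no cause was tested. In untreated cells, 24 h against 2 h, shRNA minus vector, the difference was -0.52 for Nfe2l2 (adjusted p = 0.00294), -0.78 for Hmox1 (adjusted p = 0.0139) and 0.51 for Gclc (adjusted p = 0.0486). In irradiated cells, 24 h against 6 h, it was -0.35 for Nfe2l2 (adjusted p = 0.00348) and -0.68 for Hmox1 (adjusted p = 0.00151), with no untreated cells at 6 h to compare. Nfe2l2 in both comparisons and Hmox1 in irradiated cells were called under all 8 other settings and in every fit that left out 1 array. The values for Hmox1 and Gclc in untreated cells were not.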

How the results depend on the processing

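Over 230 values of the 10 genes in each of 8 other settings, 0 called values reversed. The lower Nfe2l2, Nqo1 and Hmox1 in untreated shRNA cells stayed called throughout, at -0.78 to -0.76, -1.73 to -1.67 and -0.77 to -0.65. Leaving out the 3 deviating vector arrays, the genes called between untreated lines rose from 4 to 7 (50% of all tested genes called in that fit), and without the 4 arrays with a raised Gapdh difference also to 7 (48.7%). Those called with time in untreated shRNA cells rose from 2 to 4 after median centring (19.5% of all tested genes), 4 without the 3 vector arrays (23.9%) and 5 without the 4 Gapdh arrays (22.6%). Those called from 2 to 6 h in irradiated shRNA cells went from 1 to 0 with probe set means (21.1%). The causes were not tested. Leaving out 1 array at a time gave 4 to 6 called between untreated lines, 4 to 6 and 2 to 3 with time in untreated vector and shRNA cells, 1 to 2 from 2 to 6 h in irradiated shRNA cells (2 without replicate 3 of 100 cGy at 2 h) and 0 in the dose comparisons. The share of all tested genes called in those fits was not counted, so these counts have no background. With the replicate number as a block, 227 of 230 calls were as before and 3 values became called: Nqo1 with time in untreated vector cells (-0.35, adjusted p = 0.0439), Slc7a11 from 2 to 6 h in irradiated vector cells (0.39, adjusted p = 0.0387) and Nfe2l2 with time in untreated shRNA cells (-0.21, adjusted p = 0.0387). For line and time comparisons this block was shared across lines and times. It could thus not take up deviations shared within a line and time. With 2 or 3 arrays a group, changes in the radiation comparisons could go uncalled. The size that could be called differed between genes. At 2 h after 100 cGy in vector cells the SE was 0.08 for Nfe2l2 and 0.20 for Gclm.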
